A study of Mus musculus with 2 samples.

Results

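The non-dividing thymocytes were 186 of 3188 kept cells (5.83%, 95% interval 5.05 to 6.71) in a library of CD64-sorted cells from the adult mouse thymus. They held T cell receptor and recombination RNAs. When sorted by their UMIs of Rag and of the exit genes Ccr7, S1pr1 and Klf2, 63 held Rag alone, 49 exit genes alone, 18 both and 56 neither. Dntt, Cd8b1 and Cd4, which did not define these gates, were higher with Rag alone, and Ms4a4b, H2-K1 and Ifi27l2a with exit genes alone. Members were chosen by raw unique molecular identifiers (UMIs, each counting 1 captured RNA molecule). A member had at least 2 UMIs of Cd3d, Cd3e and Cd3g together and under 2 of the division genes Top2a, Mki67 and Hist1h1b and of the gamma delta constant gene Trdc. It also had under 3 UMIs of the natural killer (NK) genes Nkg7, Klrb1c, Ncr1 and Klre1 and under 3 of the macrophage genes C1qa, C1qb and C1qc. Kept cells had at least 500 UMIs, 300 genes and at most 10% mitochondrial UMIs.

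The study sorted thymus cells that bear CD64, an Fc receptor encoded by Fcgr1, and profiled them with the 10x Genomics 3′ platform in 2 libraries, of 2021 and 2024. Both came from adult C57BL/6 mice (C57BL/6J in the series' design text) whose thymus was digested with a Spleen Dissociation Kit, and no treatment or gene change is named. The labels call the sorted cells macrophages and do not give the number of animals behind a library. The members come from the 2021 library, which had 3214 barcodes, 8534578 UMIs and a median of 2157.5 UMIs a barcode. The 2024 library (2815 barcodes, median 5312 UMIs) was read for its depth alone, without gene names, so everything below describes 1 library, no difference has a replicate check and no test was run. Fcgr1 itself gave 1 UMI in all 186 members, and how these cells passed the CD64 gate was not tested.

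A thymocyte is a T cell precursor in the thymus. The youngest carry neither Cd4 nor Cd8 and assemble a T cell receptor beta chain; those that succeed divide, turn on Cd4 and Cd8 together, stop dividing and assemble the alpha chain with the Rag1 and Rag2 recombinase and Dntt, which adds bases at the joints. A double-positive cell whose receptor binds self peptide on MHC survives positive selection, switches Rag off, keeps Cd4 or Cd8, and gains Ccr7, S1pr1 and Klf2, which take it to the medulla and out of the organ. The thymus is crowded with such cells and macrophages engulf the many that die.

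Promoter windows of 5 genes are printed because these genes chart that path: Cd3d and Cd3g chose the members, Rag1 and Dntt mark the recombining stage, and Ms4a4b had the most UMIs of the named genes without a UMI in members that held Rag and no exit genes. Each runs 5′ to 3′ on the gene's own strand from 250 bases before to 50 after the start in the RefSeq promoter table (build GRCm38.p6). Capitals mark CANNTG, the E-box read by E proteins such as those of Tcf3 and Tcf12, which is the same on both strands.
Cd3d: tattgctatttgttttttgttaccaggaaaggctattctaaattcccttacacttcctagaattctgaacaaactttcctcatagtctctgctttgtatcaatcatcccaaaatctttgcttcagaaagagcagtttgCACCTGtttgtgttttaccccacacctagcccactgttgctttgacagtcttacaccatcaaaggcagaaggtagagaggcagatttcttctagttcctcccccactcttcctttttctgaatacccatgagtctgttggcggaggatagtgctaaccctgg
Cd3g: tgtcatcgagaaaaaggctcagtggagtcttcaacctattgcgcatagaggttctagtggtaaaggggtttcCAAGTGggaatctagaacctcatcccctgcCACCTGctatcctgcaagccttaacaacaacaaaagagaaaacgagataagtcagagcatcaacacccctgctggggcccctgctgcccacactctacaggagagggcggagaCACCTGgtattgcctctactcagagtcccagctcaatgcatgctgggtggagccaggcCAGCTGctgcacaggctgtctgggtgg
Rag1: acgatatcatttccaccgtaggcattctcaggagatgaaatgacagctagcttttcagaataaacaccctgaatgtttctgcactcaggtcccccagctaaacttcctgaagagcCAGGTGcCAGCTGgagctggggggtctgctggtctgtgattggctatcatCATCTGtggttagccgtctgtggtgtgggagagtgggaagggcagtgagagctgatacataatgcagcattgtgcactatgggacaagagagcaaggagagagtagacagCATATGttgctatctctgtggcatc
Dntt: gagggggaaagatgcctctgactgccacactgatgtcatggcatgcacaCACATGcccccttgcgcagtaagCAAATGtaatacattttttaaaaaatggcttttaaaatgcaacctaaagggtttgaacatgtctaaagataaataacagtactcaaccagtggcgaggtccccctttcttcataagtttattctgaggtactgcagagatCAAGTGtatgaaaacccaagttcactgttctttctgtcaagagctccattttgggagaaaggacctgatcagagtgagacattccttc
Ms4a4b: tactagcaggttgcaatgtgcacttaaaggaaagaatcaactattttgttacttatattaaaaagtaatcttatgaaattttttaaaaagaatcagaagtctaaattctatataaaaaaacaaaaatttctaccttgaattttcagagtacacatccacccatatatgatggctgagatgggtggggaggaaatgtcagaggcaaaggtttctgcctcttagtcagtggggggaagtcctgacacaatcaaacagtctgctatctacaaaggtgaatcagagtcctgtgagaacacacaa
They lie at chr9:44981536-44981835 (plus strand) for Cd3d, chr9:44980382-44980681 (minus) for Cd3g, chr2:101649483-101649782 (minus) for Rag1, chr19:41029025-41029324 (plus) for Dntt and chr19:11443308-11443607 (plus) for Ms4a4b. The windows held 1, 4, 4, 3 and 0 E-boxes in that order, against a median of 1 over 32817 windows of the same length, of which 72.3% held at least 1. The form CACCTG, searched on both strands and overlapping CANNTG by construction, occurred 1 time in Cd3d, 2 in Cd3g and 1 in Rag1, and in 20.2% of all windows. The letters GATAA, on either strand, occurred 1 time each in Cd3g and Dntt and in 25.4% of all windows. CACCC, as in sites of Klf factors, occurred 3 times in Cd3g, 2 in Ms4a4b and 1 in Rag1, and in 57.5% of all windows. A match is a description of letters and not of a bound site. Of 16 genes looked up, 11 had a window; those without one were Cd4, Cd8b1, Trac, Ccr7 and S1pr1. Cd3d and Cd3g start 1354 bases apart on chromosome 9 and are read in opposite directions, Rag1 and Rag2 lie 5752 bases apart on chromosome 2, and Cd8b1 and Cd8a lie 35932 bases apart on chromosome 6 on the same strand (GRCm38).

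The members were small libraries. They had a median of 829 UMIs (503 to 10701) and 514.5 genes, 0.382 times the median of all kept cells (2171.5 UMIs), and together 237217 UMIs. Their median mitochondrial share was 1.29% and their ribosomal protein share 24.8% of UMIs. Among kept cells 322 had at least 2 Cd3 UMIs; 114 of these failed the division or Trdc limit (4 through Trdc alone), 16 the NK limit and 24 the C1q limit, with 16 failing more than 1. Of the members 46 sat at exactly 2 Cd3 UMIs, the median was 4 and the highest 17, and 69 held all 3 Cd3 genes. The division limit was met with 0 UMIs by 168 members and with 1 by 18, and since the limits count raw UMIs, a shallow cell meets an upper limit more easily and the Cd3 minimum less easily.

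Just outside the Cd3 minimum, 87 cells that met the other limits with 1 Cd3 UMI (median 1007 UMIs) held the receptor constant gene Trbc2 in 57.5% of cells, against 93.5% of the 46 members with 2 Cd3 UMIs. Levels are given as CPM, a gene's UMIs scaled to 1000000 UMIs of the class of cells. Trac, the alpha chain constant gene, stood at 365 CPM outside the limit, 620.5 at 2 Cd3 UMIs and 865 at 3 or more. Rag1 stood at 703, 1105 and 701 CPM in the same order, and the myeloid lysozyme gene Lyz2 at 3934, 2815 and 538 CPM. The limit therefore left out cells that also held thymocyte RNA. The Lyz2 levels rest on few cells: 6 members held 66.9% of the members' Lyz2 UMIs, and the shares of cells with Lyz2 overlapped, at 28.3% (16.0 to 43.5) with 2 Cd3 UMIs and 18.6% (12.5 to 26.0) with 3 or more.

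The members held all 4 of the label's marker genes that the rule did not use: Rag1 (GRCm38 chromosome 2, 101638282 to 101649501, minus strand), Cd8b1 (chromosome 6, 71322788 to 71337494, plus), Ccr9 (chromosome 9, 123678439 to 123784330, plus) and Trac (chromosome 14, 54220521 to 54224206, plus). Rag1 was at 814 CPM in the members (95% interval 703 to 937, counting error only), 345 in the 98 dividing or Trdc-positive Cd3 cells, 13.2 in 295 cells with NK genes, 2.16 in 505 cells with neutrophil genes and 42.8 in all 3002 other kept cells. Cd8b1, the Cd8 beta chain, was at 877 CPM (762 to 1004) in the members, 672 in the dividing cells and 58.5 in all others. Cd8a, its alpha partner, was at 527 CPM (439 to 628), 628 and 82.0. These 3 genes were lowest in cells with NK or neutrophil genes, and the 2 Cd8 genes were near each other in members and dividing cells.

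Ccr9, a chemokine receptor of double-positive thymocytes, was at 384 CPM (309 to 471) in the members, 126 in the dividing cells and 24.2 in all others. Trac was at 797 CPM (687 to 919) against 110 and 21.3. Cd4, the co-receptor for MHC class II, was at 223 CPM (167 to 292) against 133 and 25.6. Myeloid UMIs are those of Lyz2, S100a8, S100a9, Cst3 and Tyrobp together, and 42 members held 3 or more. Without these 42, Rag1 was at 1073 CPM, Cd8b1 at 1158 and Trac at 1087, so each was higher in the 144 that remained.

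The members' shallow libraries bear on shares of cells. As sequenced, 41.9% of members held a Rag1 UMI, 51.1% Cd8b1, 56.5% Trac, 31.2% Ccr9, 40.3% Cd8a and 22.6% Cd4, and 95.2% held Trbc2. In the cells with neutrophil genes, which should lack these RNAs and had a median of 1881 UMIs, the share with Rag1 was 0.396%, with Trac 0.594%, with Cd8b1 0.198% and with Cd4 0.990%. With every cell thinned to 500 UMIs, which keeps all members, Trac was in 39.2% of members and 9.18% of dividing cells, and Ccr9 in 23.7% and 6.12%. Rag1 was in 34.4% of members and 17.3% of dividing cells. The Cd8 genes ran the other way or level, with Cd8b1 in 39.8% and 48.0% and Cd8a in 30.1% and 33.7%, and Cd4 was in 14.0% and 17.3%. The members thus differed from their dividing neighbours in Trac, Ccr9 and Rag1 more than in co-receptors.

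**Figure D1:**
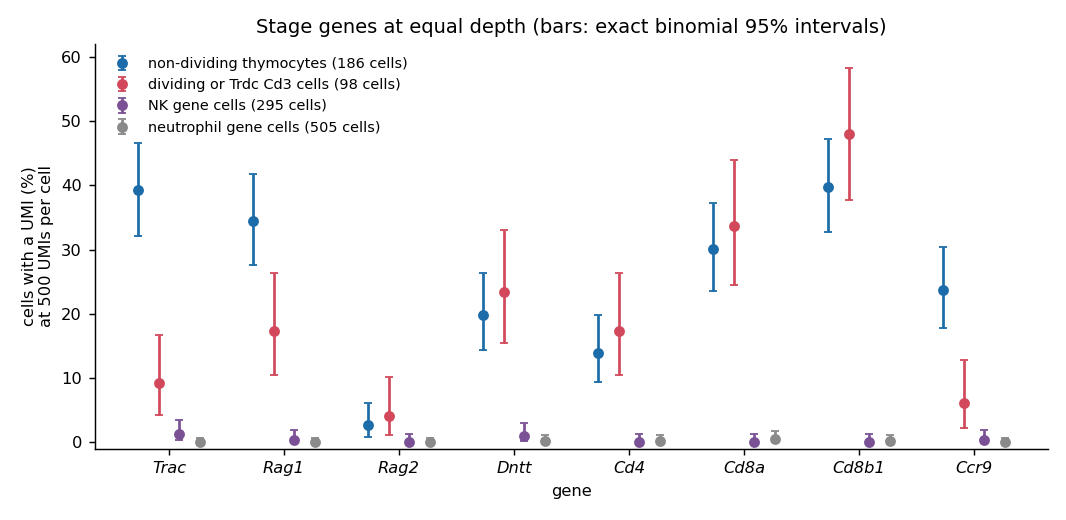
Share of cells with a UMI of each stage gene, in percent, with every cell thinned to 500 UMIs, in the members and in dividing or Trdc-positive Cd3 cells, cells with NK genes and cells with neutrophil genes; points are shares and bars exact binomial 95% intervals. Trac (39.2% against 9.18%), Rag1 and Ccr9 stand higher in the members than in dividing cells, and the intervals of Cd4, Cd8a, Cd8b1, Dntt and Rag2 overlap between them.

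Sorted by Cd4 and Cd8 UMIs as sequenced (Cd8 is Cd8a or Cd8b1), 29 members (15.6%) held both, 13 (6.99%) Cd4 alone, 87 (46.8%) Cd8 alone and 57 (30.6%) neither. At 500 UMIs a cell the shares were 11.3%, 2.69%, 37.6% and 48.4%, and in the dividing cells 13.3%, 4.08%, 51.0% and 31.6%. At 2000 UMIs only 26 members were deep enough, and 1, 1, 10 and 14 of them fell into these gates. Neither was found in 99.2% of cells with neutrophil genes at 500 UMIs. A cell in which no UMI of a co-receptor was caught may still have carried it, so the gates are detection classes and not stages.

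The gates still differed in genes that did not define them. Rag1 and Rag2 together were at 2849 CPM in members with both co-receptors, 721 with Cd4 alone, 958 with Cd8 alone and 65.5 with neither. Dntt was at 752, 180, 496 and 52.4 CPM, and Ccr9 at 910, 180, 437 and 170. The exit receptors Ccr7 and S1pr1 together ran in the other direction, at 39.6 CPM (1 UMI), 240 (65.5 to 616), 311 (219 to 428) and 367 (244 to 530). Trac did not follow either order, at 712, 1383, 664 and 905 CPM. Zbtb7b, the factor of the Cd4 lineage, gave 0, 1, 3 and 8 UMIs, and Foxp3 gave 0, 1, 0 and 5. Members without a co-receptor UMI were thus low in the recombination genes Rag1, Rag2 and Dntt. They held exit receptors at a level whose interval overlapped those of members with Cd4 alone or Cd8 alone.

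**Figure D2:**
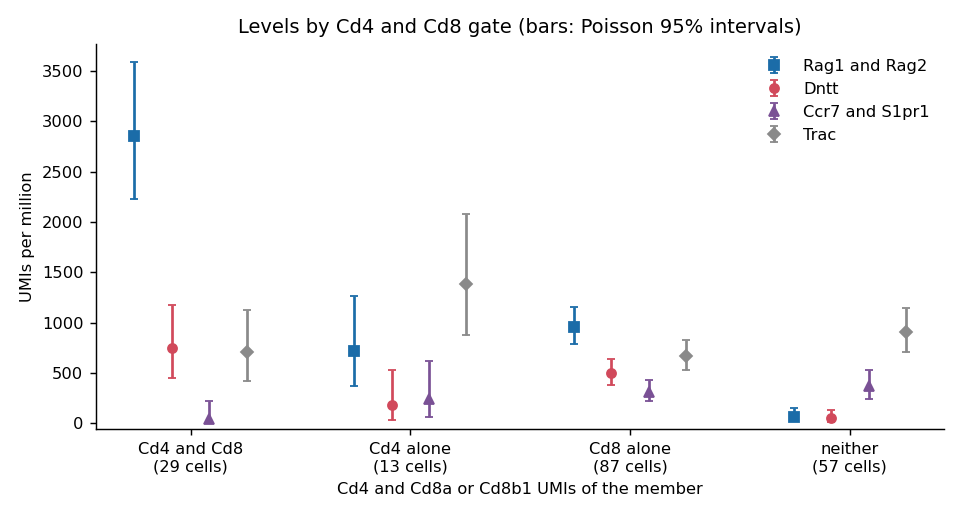
Levels in UMIs per 1000000 of Rag1 and Rag2 (squares), Dntt (circles), Ccr7 and S1pr1 (triangles) and Trac (diamonds) in the 4 Cd4 and Cd8 detection gates of the members as sequenced, with Poisson 95% intervals. Rag1 and Rag2 stand at 2849 with both co-receptors and 65.5 with neither, and Ccr7 and S1pr1 at 39.6 and 367.

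T cell receptor RNA came mostly from alpha beta genes. Trbc1 was at 1969 CPM in the members and 1849 in dividing cells, and Trbc2 at 3815 and 4064; the pair are near copies on chromosome 6, so the split between them is uncertain. A Trav segment was caught in 18 members (9.68%, 5.84 to 14.9; 18 segments, 23 UMIs) and a Trbv segment in 19 (10.2%, 6.26 to 15.5; 11 segments, 20 UMIs). The most frequent Trav segment had 3 UMIs and the most frequent Trbv segment 4, so no 1 segment made up most of what was caught. At 500 UMIs a cell, a Trbc gene without Trac was found in 50.5% of members and 76.5% of dividing cells. A gamma chain constant gene was in 3 members (1.61%; 6 UMIs of Tcrg-C2) and in 12 dividing or Trdc-positive cells (12.2%); Trdc was part of the rule. Ptcra, the surrogate alpha chain of the beta selection stage, gave 4 UMIs in all members.

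Against all other kept cells, the members were higher in receptor signalling and double-positive genes and T lineage factors, and lower in all 8 shared myeloid markers. This is the contrast the rule drew, so the values are a description. Ratios are log2 of CPM with 10 CPM added to both sides, over genes with at least 15 UMIs in both together, and a log2 ratio of 1 or more in size is called. Of 11126 genes, 991 (8.91%) were called higher and 676 (6.08%) lower in the members. The median log2 ratio of all genes was 0.12, and scaling by median of ratios, which shifts the log2 ratios by 0.34, gave 496 higher and 902 lower, moving the share of called genes that were higher from 59.4% to 35.5%. Without the 42 members with myeloid UMIs the counts were 1575 and 1278.

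Receptor signalling had 19 of 21 genes higher and 0 lower (median log2 ratio 2.92), and the same count without the 42 members (median 3.34). Lck, the kinase tied to the co-receptors, was at 426 CPM against 49.5 (log2 ratio 2.87). Lat, the adaptor that gathers the signalling complex, was at 687 against 44.1 (3.69), and Cd247, the zeta chain, had a log2 ratio of 3.01. Themis, which thymocytes need for positive selection, was at 3.02, and Cd5, which tempers receptor signals, at 2.90. The 2 genes short of the call were Lcp2 (0.39) and Ptprc (0.90), both also used by myeloid cells.

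The double-positive stage list had 14 of 15 genes higher (median 2.76; 14 of 15 and 3.15 without the 42). Satb1, a chromatin organiser of these cells, was at 1113 CPM against 111 (log2 ratio 3.22), Endou at 3.26, Aqp11 at 2.93 and Arpp21 at 2.70. Cd24a, which many immature cells share, was at 0.38. The V(D)J recombination list was split: Rag1 (3.96), Dntt (2.76), Xrcc6 (2.11) and Rag2 (1.84) were the 4 of 14 called higher, and the other genes lay under the call (median of the whole list 0.63). Xrcc6 is a general DNA end-joining gene.

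T lineage transcription factors had 14 of 21 genes higher and 0 lower (median 2.01; 14 higher and 2 lower without the 42). Tcf7, induced by Notch at T lineage entry, was at 780 CPM against 96.3 (log2 ratio 2.89), Bcl11b, which fixes T commitment, at 540 against 43.8 (3.35), Ets1 at 2.72, Myb at 2.83 and Lef1 at 2.55. Among the E protein genes Tcf12 was at 1.90 and Tcf3 at 0.50; of their inhibitors Id3 was at 2.22 and Id2 at -0.61. The early double-negative list had 1 of 12 genes higher, Il2ra (1.37; 6 UMIs), and 7 lower (median -1.29), among them Spi1 (-1.52) and the myeloid-expressed Mef2c (8.43 CPM in the members and 105 in the others). Hhex gave 0 UMIs in the members.

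Maturation genes were higher in 9 of 17 (median 1.05), in 11 without the 42 members and in 6 under median-of-ratios scaling. S1pr1, which draws cells out along sphingosine phosphate, was at 80.1 CPM against 10.5 (log2 ratio 2.14), Il7r at 2.06, Gimap6 at 2.86 and Ms4a4b at 2.02. Klf2 (0.02), H2-K1 (-0.10) and Cd52 (-0.16) were level with the rest, in which many myeloid cells also hold them; Klf2 was in 54.5% of cells with neutrophil genes. Of the positive selection list 6 of 14 were higher (median 0.50), with Itm2a at 152 CPM against 4.83 (log2 ratio 3.45) and Cd69 at 2.02, while the immediate early genes Nr4a1 (0.50) and Egr1 (-0.24) lay under the call. Interferon genes had 0 of 11 higher and 4 lower (median -0.61), and dissociation stress genes 0 of 14 higher and 2 lower (median -0.27).

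The 15 named genes with the largest ratios were the stage and receptor genes Trac (4.69), Rag1 (3.96), Cd8b1 (3.70), Lat, Trbc2 (3.67), Trbc1 (3.61), Ccr9 (3.53), Cd27 (3.50), Itm2a and Bcl11b, with 5 others. Icos, a co-stimulatory receptor, was at 152 CPM against 2.54 (log2 ratio 3.69), and Ikzf2, the factor Helios, at 291 against 13.5 (3.68). Gm15340, a long non-coding RNA on chromosome 16, had 32 UMIs in 22 members and 18 UMIs in all others. Chrna9, a nicotinic receptor subunit, had 30 UMIs spread over 29 members and 21 UMIs in all others. Tff1, a mucosal trefoil peptide, had 29 UMIs in 5 members, 20 of them in 1 cell, and 1 UMI elsewhere.

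Lower in the members were the chemokines Ccl4 (3 UMIs, 12.6 CPM against 332) and Ccl3 (-3.46), Cd79a of B cells (1 UMI against 171 CPM elsewhere), Prtn3 (-3.37), Gzma (-3.28), Cd209d (-3.25), Ly6c2 (-2.97), Cxcl2 (-2.91), Vcam1 (-2.88), Mgl2 (-2.83) and Apoe (291 CPM against 2005; -2.74). Fn1, Elane, Fcgr3 and Ccl12 gave 0 UMIs. Set against a floor of 3 UMIs over all members, they were at least 10.2-fold, 9.59-fold, 5.79-fold and 4.45-fold lower. Fcgr3 encodes CD16, another Fc receptor, and its absence went with the near absence of Fcgr1.

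Against the 98 Cd3 cells that held division genes or Trdc (median 3067.5 UMIs), the members kept the double-positive genes at similar levels and were higher in maturation and interferon genes. Of 5356 genes, 504 (9.41%) were called higher and 742 (13.9%) lower. All 20 compared genes of a division list that leaves out the rule's genes were lower (median -2.55, and 20 of 20 without the 42 members), as a contrast drawn on division genes must lean. Tyms, which makes the thymidine nucleotide, had a log2 ratio of -4.08, Rrm2 -4.07, Cdk1 -3.56 (16.9 CPM against 306), Birc5 -3.12 and Pcna, the replication clamp, -2.61 (101 against 667). The largest drops named were Cdca3 (-4.27), Spc24 (-3.95), H2afx (-3.94), Hist1h2ae (-3.94), Ccna2 (-3.87), Pclaf (-3.84), Nusap1 (-3.80) and Kif11 (-3.78). Hmgb2 and Hmgb1, chromatin proteins rich in dividing cells that also aid recombination, had log2 ratios of -2.97 and -1.82.

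The label's word non-dividing was checked at equal depth. At 500 UMIs a cell, 22.0% of members (16.3 to 28.7) held a UMI of the 20-gene division list, against 89.8% of the dividing cells. The share was 18.4% of all other kept cells, 12.5% (8.99 to 16.9) of cells with NK genes and 11.7% of cells with neutrophil genes. The members' share was thus near that of all other kept cells, which include the dividing class, and above those of cells with NK or neutrophil genes. It was far under that of the dividing class, from which the rule's division genes had split the members. The share was 36.5% in the members with Rag and no exit genes and 14.3% in those with exit genes and no Rag. At 1000 UMIs, for which only 11 of the 63 Rag cells were deep enough, 9 of these 11 (81.8%, 48.2 to 97.7) held a division UMI, with a mean of 3.82, against 98.9% and a mean of 6.62 in dividing cells and 28.0% in all other kept cells. The name non-dividing is thus not settled for the deepest Rag cells; over all 73 members of that depth the share was 34.2%.

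Maturation genes were higher in 13 of 14 (median 2.48; 12 of 13 and 2.83 without the 42 members). H2-K1, a class I molecule, was at 1117 CPM against 207 (log2 ratio 2.38), and Cd52 at 3267 against 434 (2.88). Ms4a4b, a membrane protein of mature T cells, was at 388 CPM against 20.9 (3.69), and Ccr7, which leads cells to the medulla, at 215 against 13.1 (3.29). S1pr1 had 19 UMIs in members and 1 in dividing cells, Bcl2 16 and 2, and Il7r 23 and 3.

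Interferon genes were higher in 7 of 8 (median 1.89) and in 3 of 5 without the 42 members. Ifi27l2a led them at 2534 CPM against 180 (log2 ratio 3.74), with UMIs in 72 members and at most 95 in 1. Isg15 was at 2.03 and Zbp1 at 2.61, with Bst2 at 0.68. Dissociation stress genes were higher in 8 of 12 (median 1.23) and in 6 of 11 without the 42, with Junb at 1.69 and Jun at 1.49. The part of the tissue digestion in these levels was not tested.

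Receptor signalling had 7 of 20 genes higher and 0 lower (median 0.49), led by Trac (797 CPM against 110, log2 ratio 2.75) and Cd2 (2.74), while Thy1 was at -0.56. The double-positive list had 2 of 15 higher, Ccr9 (1.54) and Rag1 (1.21), and 0 lower (median 0.08), and T lineage factors had 1 of 20 higher and 1 lower (median -0.01). In both these lists the sign of the median changed with the settings, between -0.89 and 0.37 for the double-positive list and between -0.76 and 0.23 for the factors. Positive selection genes were higher in 4 of 11 (median 0.59), with Cd69 at 2.66 and Itm2a at 2.39. Tnfrsf4, the co-stimulatory receptor OX40, was at 253 CPM against 13.1 (log2 ratio 3.51). Gm8369, Tff1 and Ctla2a gave 0 UMIs in the dividing cells and were at least 15.6-fold, 15.6-fold and 14.0-fold higher in the members. Hopx had 38 UMIs in 12 members against 1 UMI, and Retnlg, a neutrophil gene, had 101 UMIs in the members, 61 of them in 1 cell. All 8 neutrophil markers were also called higher in this comparison, at 27055 CPM against 3815, and 6 members held nearly all of those UMIs.

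**Figure D3:**
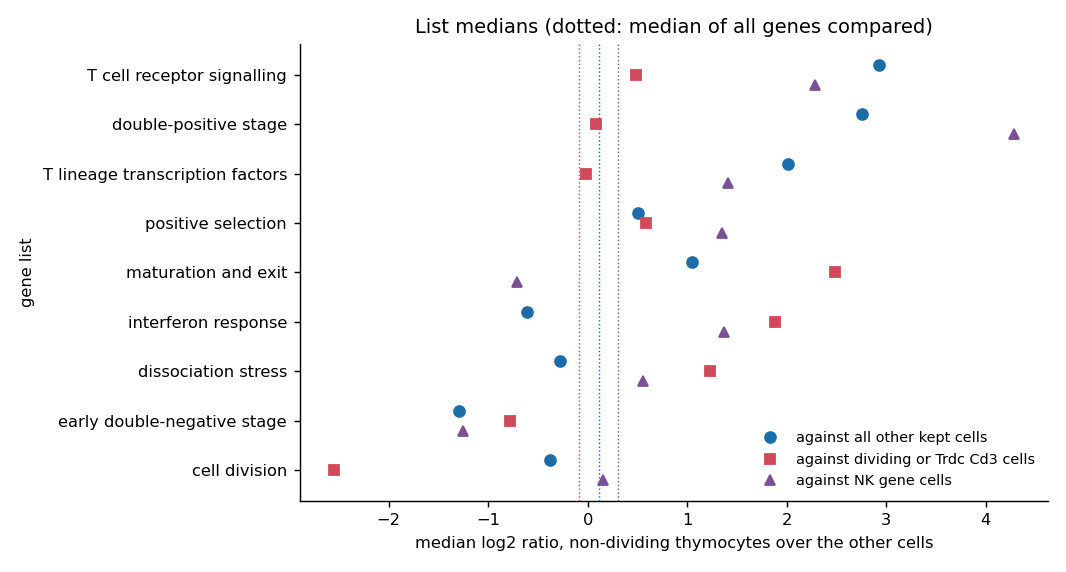
Median log2 ratio of each gene list in the members against all other kept cells (circles), dividing or Trdc-positive Cd3 cells (squares) and cells with NK genes (triangles); dotted lines mark the median of all genes compared. Receptor signalling (2.92) and double-positive genes (2.76) stand far right against all other cells, and maturation (2.48) and division (-2.55) stand apart against dividing cells.

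Cells with NK genes were another class of lymphocytes in the library: 295 cells with at least 3 NK UMIs and under 2 Cd3 UMIs, with a median of 987 UMIs, close to the members' 829. Some of them also held granule RNA, since the 8 neutrophil markers summed to 111732 CPM there, so granule genes in this comparison do not describe NK cells. Of 4994 genes, 847 (17%) were called higher in the members and 326 (6.53%) lower, with a median of 0.30 over all genes. Median-of-ratios scaling gave 454 and 488, moving the share higher from 72.2% to 48.2%.

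Against these cells all 13 compared double-positive genes were higher (median 4.29; 12 of 13 under median-of-ratios scaling). Cd8b1 was at 877 CPM against 2.21 (1 UMI), Bcl11b had a log2 ratio of 5.25, Cd8a 5.22, Rag1 5.15, Trac 4.87, Ccr9 4.57 and Tnfrsf4 4.43. Endou, Themis and Arpp21 gave 0 UMIs in the NK gene cells and were at least 39.5-fold, 29.3-fold and 28.0-fold higher in the members. Receptor signalling, part of which NK cells share, had 15 of 20 higher (median 2.29), with Lat at 3.11, Lck at 1.45 and Zap70, the kinase both lineages use, at 0.71. T lineage factors were split, with 12 of 20 higher, such as Tcf7 at 3.75, and 2 lower, Id2 (-1.92) and Runx3 (-1.62), the latter pair being factors of innate lymphocytes.

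Innate-like T genes were lower in 6 of 8 (median -3.08), with Xcl1 at -4.47, Klrd1 at -3.56 and Il2rb at -3.46. Among cytotoxic genes, Gzma was at 54.8 CPM against 9673 (log2 ratio -7.22), and the chemokine Ccl5 at 249 against 19322 (-6.22). The NK receptor genes Klra7, Klra8 and Klrk1 gave 0 UMIs in the members and were at least 32.1-fold, 31.6-fold and 29.3-fold lower. Also lower were Ccl4, with 3 UMIs in the members against 1547 CPM, and the granule genes Elane, Prtn3, Mpo and Ms4a3, whose UMIs lay in 12, 14, 12 and 13 NK gene cells. Maturation genes had 4 of 17 higher and 6 lower (median -0.71), with Il7r at 2.20.

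Within the members, cells were gated by the genes of recombination and exit. A Rag gate took the 63 members with a Rag1 or Rag2 UMI and none of Ccr7, S1pr1 and Klf2, and an exit gate the 49 with a UMI of the latter and none of Rag; 18 held both and 56 neither. The Rag gate cells were shallower, at a median of 601 UMIs against 1231, and had 17.9% ribosomal UMIs against 30.7%. Those with both were the deepest, at 2062 UMIs. The gates crossed the co-receptor classes: of the 29 members with Cd4 and Cd8, 21 were in the Rag gate and 0 in the exit gate, and of the 57 with neither, 2 and 25. Of the 87 with Cd8 alone, 37 were in the Rag gate and 20 in the exit gate, and of the 13 with Cd4 alone, 3 and 4.

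Of 1343 genes with enough UMIs, 275 (20.5%) were called higher in the Rag gate and 162 (12.1%) lower, so a call was common at this depth (48010 and 78220 UMIs). All 12 compared double-positive genes outside the gate were higher in the Rag gate (median 2.80 against 0.16 for all genes; 11 of 11 and 2.70 without the 42 members). Dntt was at 1021 CPM against 89.5 (log2 ratio 3.37), Cd4 at 646 against 63.9 (3.15), Cd8b1 at 2208 against 358 (2.59), Cd8a at 1500 against 281 (2.37) and Ccr9 at 812 against 179 (2.12). Themis and Endou were each at 583 against 63.9.

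T lineage factors were higher in 7 of 11 (median 1.52), with Nfatc3 at 3.42, Myb at 2.77, Tcf12 at 2.17 and Tcf7 at 2.02. Receptor signalling was higher in 9 of 16 and lower in 1 (median 1.13). Trbc2 was at 7290 CPM against 2455 (log2 ratio 1.57) and Trbc1 at 3437 against 1432 (1.26), while Trac was at 771 against 882 (-0.19). The 1 lower gene was Cd2, an adhesion receptor, at 2 UMIs in the Rag gate and 396 CPM in the exit gate. A Trbc gene without Trac was in 65.1% of Rag gate and 49.0% of exit gate cells at 500 UMIs. Bcl2l1, a survival gene, had a log2 ratio of 2.12.

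Among the 10 genes named as higher in the Rag gate, 7 gave 0 UMIs in the exit gate. Arpp21, on chromosome 9, had 28 UMIs (at least 15.2-fold higher), Gm15340 22 (11.9-fold), Dgkeos 21 (11.4-fold), the DNA end-binding Xrcc6 17 (9.23-fold), Gm37065 and Tctex1d1 16 each (8.69-fold) and Tubb2b 15 (8.15-fold). Dgkeos overlaps Dgke, and Gm37065 overlaps Slamf6, each on the opposite strand. Whether any of their reads came from the overlapped gene was not tested. Hist1h2ap, a histone gene of a family with near-identical copies, was at 1083 CPM against 63.9, and Trat1 and 1810059H22Rik had 20 and 17 UMIs against 1 each.

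Maturation genes outside the gate were higher in the exit gate in 5 of 6 (median log2 ratio of Rag over exit -2.80; 5 of 5 and -3.77 without the 42 members). Ms4a4b, at chromosome 19, 11443553 to 11467055, gave 76 UMIs in 28 of 49 exit gate cells and 0 in the Rag gate, at least 15.5-fold higher. H2-K1 was at 1521 CPM against 146 (log2 ratio -3.30), and Cd52 had a log2 ratio of -1.71. Interferon genes were higher in the exit gate in 3 of 5 (median -1.97; 2 of 3 without the 42), with Ifi27l2a at 4347 CPM against 208 (-4.32) and Isg15 at 25 UMIs against 1. Cd69 (-1.64) and Itm2a (-1.94) were the 2 of 5 positive selection genes called, and Cd69 is also a gene of recent activation.

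The other named genes of the exit gate gave 0 UMIs in the Rag gate. AW112010, a non-coding RNA, had 45 UMIs (at least 9.21-fold higher), Tnfrsf4 34 (6.96-fold), the cyclin Ccnd2 31 (6.34-fold), Gm8369 21 (4.30-fold), the integrin Itgb7 and the actin regulator Vasp 18 each (3.68-fold), Tnfrsf18 17 (3.48-fold), Klk8 16 (3.27-fold) and Lgals3 15, in 7 cells (3.07-fold). Gm8369 lies near Ms4a4b on chromosome 19, at 11485938 to 11512577, in a stretch of related Ms4a genes among which the counting could split reads. With the exit gate set by Ccr7 and S1pr1 alone, 29 cells remained in it and the Rag gate grew from 63 to 76; Lgals3 was then higher on the Rag side (log2 ratio 2.01) and the stress list turned from 0 of 10 higher and 3 lower to 3 higher and 0 lower. The 4 compared neutrophil markers were also higher in the exit gate. All 8 markers summed to 10534 CPM there against 1083, with 805 of 824 UMIs in 6 cells. They summed to 322 CPM without the myeloid-positive cells, which S100a8 and S100a9 helped to choose.

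**Figure D4:**
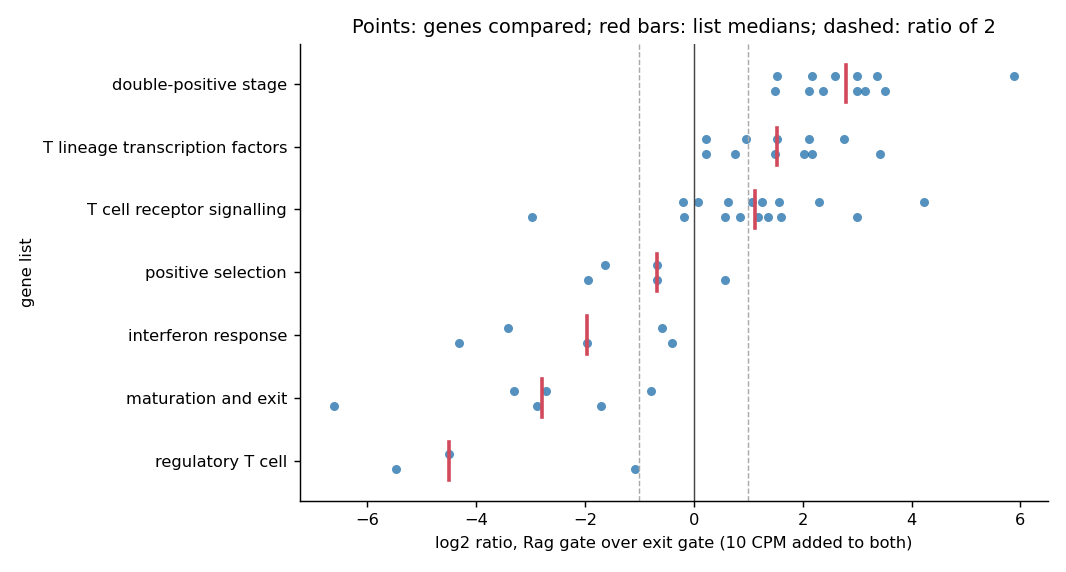
Log2 ratio of Rag gate (63 members) over exit gate (49 members) for each compared gene of 7 lists, with 10 CPM added to both sides; points are genes, red bars list medians and dashed lines a log2 ratio of 1 in either direction. All 12 double-positive genes lie right of the dashed line, and 5 of 6 maturation genes lie left of the other.

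Foxp3, the factor of regulatory T cells, gave 6 UMIs in 6 members (3.23%) and 0 in dividing, NK gene and neutrophil gene cells. Of these 6, 5 held Tnfrsf4, 4 Tnfrsf18, 3 Ikzf2, 3 Il2ra, 2 Ctla4 and 1 Cd4, and none held Rag1 or Cd8b1; 4 lay in the exit gate and 2 had neither Rag nor exit genes. All 5 compared regulatory T genes were called higher in the members than in the rest of the library (median 3.03), 4 of 5 against dividing cells (median 2.03), and all 3 compared were higher in the exit gate than in the Rag gate. Tnfrsf4, Tnfrsf18 and Ctla4 gave 0 UMIs in all 63 Rag gate cells. They were not particular to the exit gate, as the 56 members with neither Rag nor exit genes also held them. Tnfrsf4 was at 430 CPM there against 435 in the exit gate, Tnfrsf18 at 414 against 217 and Ctla4 at 199 against 102. The intervals of each gene overlapped between these 2 groups. Zbtb16, the factor of innate-like T cells, gave 0 UMIs in the members, and the innate-like list had 1 of 10 genes higher than in the rest and 3 lower, with Plac8, a gene also of monocytes and neutrophils, at -1.28. Cells with exit genes and no Rag could be the oldest thymocytes or T cells from outside the organ, and these cannot be told apart by the genes counted here.

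RNA of other cell types was concentrated in some members. The 4 thymocyte markers summed to 2871 CPM in all members, 3790 in the 144 without myeloid UMIs and 147 in other kept cells. The 8 neutrophil markers summed to 27055 CPM in the members and 465 in the 144, with 6281 of 6418 UMIs in 6 members, against 69321 elsewhere; those 6 also held 98.1% of the members' S100a8. Shared myeloid genes summed to 4308, 608 and 17351 CPM in the same order, and dendritic cell genes to 2504, 343 and 8812. Macrophage markers stood at 438, 286 and 2553 with Mertk at 0 in the members, and monocyte markers at 523, 93.0 and 2126 with Fn1 at 0. The 42 members with myeloid UMIs had a median of 1701.5 UMIs, against 796 in the other 144.

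B cell markers summed to 295 CPM in the members and 645 elsewhere, with Pax5 at 0, and 1 member held 92.8% of their Igkc. NK markers summed to 194 CPM against 1010, with Prf1 and Klrk1 at 0, and plasmacytoid dendritic cell markers to 160 against 340 with Siglech at 0. All 4 erythroid genes were at 0. Cd74, which presents class II peptides, was concentrated too, with 93.1% of its UMIs in 11 members. The 191 cells with the highest doublet scores, set as the top 6% of kept cells, included 11 members. The members' share (5.91%) was thus near that of all kept cells, and 7 of the 11 were among the 42. The part of doublets in the myeloid UMIs was not tested; without these 42 members the receptor signalling and double-positive lists had the same counts higher than in all other cells.

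**Figure D5:**
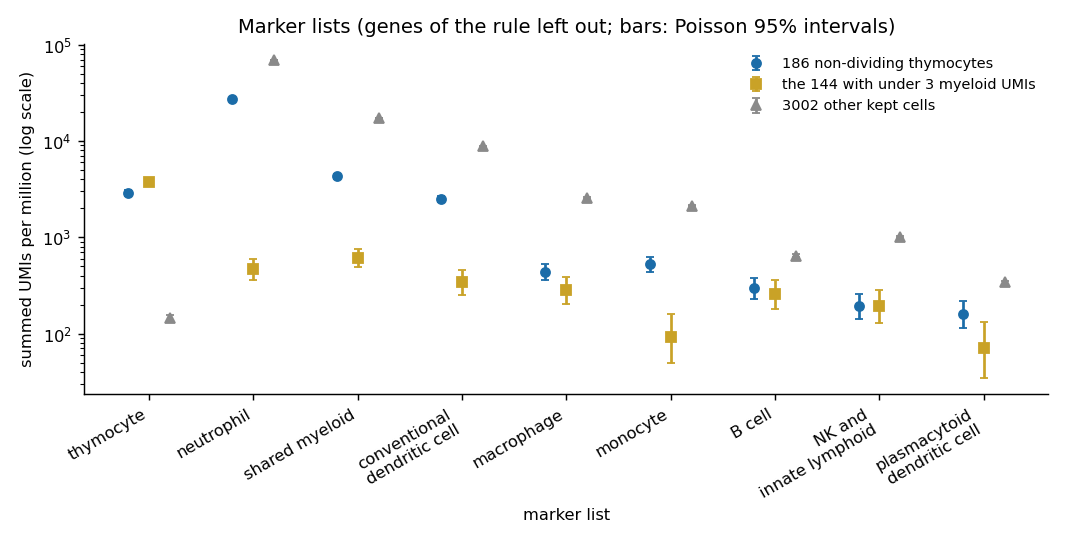
Summed levels of marker genes of each cell type, in CPM on a log scale, in all members, in the 144 members with under 3 myeloid UMIs and in all other kept cells. Neutrophil markers fall from 27055 to 465 CPM when the 42 members are left out, and thymocyte markers move from 2871 to 3790. The 42 were chosen by genes that include the neutrophil markers S100a8 and S100a9, so much of that fall follows from the choice.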

How the data were processed

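Single-cell 3′ RNA was measured in 2 libraries of CD64-sorted adult mouse thymus. The deposited matrices hold raw UMI counts per gene and barcode, made by the authors with Cell Ranger (6.0.0 for 2021 and 8.0.0 for 2024, per the file headers) on mm10, per the submitters' processing notes. Only the 2021 library was used with gene names. Barcodes shared between the libraries were not analysed here.

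Members and lists were chosen with earlier results of these data known. Counts were summed over the cells of a class and given as CPM; ratios, limits and classes are stated where first used. Cells were also thinned without replacement to 2000, 1000 or 500 UMIs; 500 was chosen after seeing that 2000 left 26 members. Cells with neutrophil genes held at least 20 UMIs of S100a8 and S100a9 and under 2 Cd3 UMIs. Myeloid-positive members held at least 3 UMIs of Lyz2, S100a8, S100a9, Cst3 and Tyrobp together. Intervals are exact 95% binomial (Clopper-Pearson) or Poisson ones and cover counting error only.

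Genes were named by rank: the 15 (against all other cells) or 10 (elsewhere) largest ratios a direction with at least 50 CPM and 5 cells on the higher side, leaving out the genes of the rule or gate, ribosomal, mitochondrial, immunoglobulin and receptor segment genes; examples of lists were chosen by their values. Doublets were scored with Scrublet in scanpy 1.11.5, whose automatic threshold called 3 cells and so had not worked; all cells were kept, and leaving out the top 6% was an alternative. The work used pandas 2.3.3, scipy 1.17.1, numpy 2.4.6 and Python 3.11.15; the summing and ratios were tested on simulated counts. Some genes of the lists are not reported here by name. Gene positions are from GENCODE M21 (GRCm38). Other alternatives changed the cell filter, Cd3 minimum, added CPM, gene minimum, scaling and gate.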

Additional observations from a re-analysis of the deposited data

How the results depend on the processing

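All values rest on 1 library and most members held under 1000 UMIs, so absence of a UMI says little for a single cell; 73 members had 1000 UMIs or more. No paired analysis was possible because 1 library with gene names was used and no test was run. The member share (5.83%) became 8.56% with at least 1 Cd3 UMI, 4.39% with at least 3, 2.83% with the stricter cell filter (1000 UMIs, 500 genes, 5% mitochondrial) and 4.52% without members with myeloid UMIs. Summed stage gene levels (3663 CPM) were 3085 with 1 Cd3 UMI, 1736 with the stricter filter, 4211 without high doublet scores and 4834 without myeloid-positive members. At 2000 UMIs the gate of Cd4 alone (3.85%) held 0 members with at least 3 Cd3 UMIs and 0 without the myeloid-positive ones, that of Cd4 and Cd8 (3.85%) 0 without them, and neither (53.8%) was 30.6% without thinning.

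Against all other cells, 991 genes higher became 180 with 50 CPM added, 656 with 1 Cd3 UMI, 496 with median-of-ratios scaling and 1575 without myeloid-positive members; 676 lower became 142, 273 and 1278 under the first, second and last of these and 1153 with the mean of per-cell CPM. Against dividing cells, 504 higher became 185 with 50 CPM, 153 with genes of at least 50 UMIs and 1156 with no gene minimum; 742 lower became 287, 299 and 1140. Against NK gene cells, 847 higher became 255 with 50 CPM, 505 with the stricter filter, 200 with 50 UMIs, 454 with median of ratios and 1754 with no minimum; 326 lower became 144 with 50 CPM, 134 with 50 UMIs, 490 with per-cell means and 537 with no minimum. For Rag against exit gate, 275 higher became 561 with 1 Cd3 UMI, 116 with the stricter filter (11 and 32 cells), 42 with 50 UMIs and 3214 with no minimum; 162 lower became 280 with 1 Cd3 UMI, 97 with the exit gate by Ccr7 and S1pr1, 53 with 50 UMIs and 2442 with no minimum. Why these counts moved was not tested, except that a gene minimum changes how many genes enter.

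Sign changes were counted for named genes and list medians with a log2 ratio of 1 or more in size in the main setting. Among these, the sign changed for Lgals3 (log2 ratio of Rag over exit 2.01 with Ccr7 and S1pr1 alone) and for Cd79a against all others (0.31 with 1 Cd3 UMI). It also changed for the median of early double-negative genes against NK gene cells (0.48 with the stricter filter, 0.29 with no gene minimum). Smaller medians, such as those of the double-positive list and T lineage factors against dividing cells, changed sign too. The cause of these changes was not tested. Over 90 named gene and comparison pairs under their 1100 alternatives, 2 changed sign and 8 fell under a log2 ratio of 1 in size. The Cd79a value of 0.31 is counted in both. The exit gate without Klf2, the 500 UMI depth and leaving out the 6 members with 50 or more S100a8 UMIs were chosen after seeing the data.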

Other observations

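Outside the members, 24 kept cells (0.753%; 0.483 to 1.12) held at least 2 Cd3 and at least 3 C1q UMIs, with a median of 3911 UMIs. Rag1 was at 289 CPM in them, Cd8b1 at 359, Trac at 140 and Cd4 at 131, against 814, 877, 797 and 223 in the members. Ccr7 and S1pr1 gave 0 UMIs in these 24 cells, and Fcgr1 gave 5. These cells were chosen without a division limit, so they may include dividing cells. The dividing or Trdc-positive Cd3 cells also held Rag1 and Cd8b1 with little Ccr7 (5 UMIs, in 2 cells). Rag1 and Cd8b1 with few or no UMIs of the exit receptors is thus not particular to cells with C1q RNA. The source of their thymocyte RNA was not tested.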
